A study of Homo sapiens with 6 samples.

Results

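The coronins are a family of actin-binding proteins, and 7 of their genes were listed among the 14959 genes measured by RNA-seq in UM-SCC1 cells. The members were taken by name: CORO1A, CORO1B, CORO1C and CORO6 (type I), CORO2A and CORO2B (type II), and CORO7 (type III). CORO6 had been chosen by its FPKM values in this very comparison, for their large rise, so its values are given as a description with no test, whereas the other 6 genes were tested.

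UM-SCC1 is an established line of human head and neck squamous cell carcinoma. Cells were transfected either with mimics of miR-204-5p, which are short synthetic double-stranded RNAs that stand in for the mature miRNA, or with control mimics, and RNA was taken 48 h later. Each group held 3 libraries from independent experiments on this 1 line, and the groups differed in the mimic alone as far as the labels say. The measurement was the FPKM, the number of fragments scaled to the length of the transcript and to the mapped fragments of the library. Whether a value covers all transcripts of a gene or the listed one alone is not given in the sources used here, and levels compared between genes, shares and fragment estimates depend on it. The mature miRNA itself was not part of this measurement.

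Coronins fold into a WD-repeat propeller that binds actin filaments. Type I members act at the edge of moving cells, where they restrain the Arp2/3 complex, which starts branched filaments, and help cofilin to take old filaments apart. CORO1A is best known from white blood cells, CORO1B and CORO1C from most migrating cells, CORO6 from muscle, heart and nerve, CORO2A also from the NCoR corepressor in the nucleus, CORO2B from nerve cells and focal adhesions, and CORO7 from the Golgi.

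A miRNA recognises messages mainly through its seed, bases 2 to 8, which pair with matching letters in the 3′UTR (the untranslated end of the message). The mature miR-204-5p (RefSeq, GRCh38.p14, chr9:70810031-70810052, minus strand) is shown with its seed in capitals, followed by the 4 places in the CORO1C 3′UTR that hold its complement, with the matching letters in capitals. They are shown because CORO1C was the only coronin that held a match of 7 letters or more.
hsa-miR-204-5p: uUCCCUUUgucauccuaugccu
CORO1C 3′UTR base 88: gtcctagggagggcggAAAGGGAgg
CORO1C 3′UTR base 501: ttttttccttaatttgAAAGGGAca
CORO1C 3′UTR base 1598: tgccattgggaccacgAAGGGAAtt
CORO1C 3′UTR base 2040: agagaagcaggagggcAAGGGAAag

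All 4 matches lay in the last of the 11 exons of transcript ENST00000261401, whose 3′UTR is 2294 bases long (GENCODE 29, GRCh38, minus strand). The first 2, at chr12:108647310-108647316 and chr12:108646897-108646903, were the 7mer-m8 kind, AAAGGGA, which pairs with the whole seed. The other 2, at chr12:108645799-108645805 and chr12:108645357-108645363, were the 7mer-A1 kind, AAGGGAA, in which 6 seed letters are followed by an A. Only the sense strand of each 3′UTR was searched, and the 6 letters AAGGGA lie inside both kinds. The base number given with each match is that of the first letter of AAGGGA, so a stretch AAAGGGA starts at the base before it.

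CORO2A held 2 matches of 6 letters only, at bases 3186 and 3295 of a 3′UTR of 3799 bases. CORO1A, CORO1B, CORO2B, CORO6 and CORO7 held none in their longest annotated 3′UTR, which ran from 112 bases in CORO1A to 1832 bases in CORO2B. The 3′UTR of CORO6 was 976 bases long. Among all genes with an annotated 3′UTR, 27.09% held a match of 7 or 8 letters, beside 1 of 7 coronins. Among 992 3′UTRs within 10% of the length of that of CORO1C, 38.1% held such a match and 1.81% held at least as many copies of AAGGGA. Among 880 3′UTRs of the length of that of CORO6, 70.3% held no match.

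**Figure D1:**
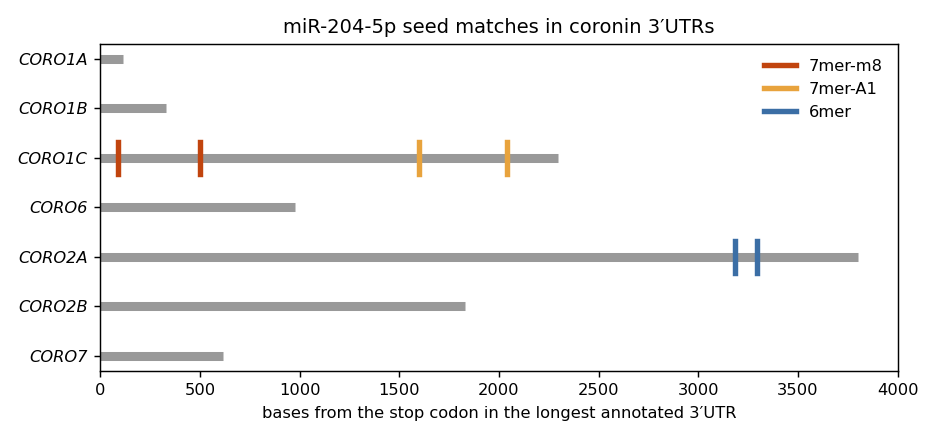
Position of miR-204-5p seed matches along each coronin 3′UTR (the longest that is annotated). Grey bars give the 3′UTR from the stop codon in bases and coloured ticks mark each match by kind; CORO1C carries 4 ticks, CORO2A 2 and the others none.

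With miR-204-5p mimics CORO6 and CORO1A stood higher, CORO1C and CORO1B stood lower, and CORO2A, CORO2B and CORO7 did not pass the test. Of the 6 tested coronins, 1 rose and 2 fell at an adjusted p-value under 0.05 (limma, Benjamini-Hochberg over all genes), where 40.8% of all genes passed in either direction, 23.9% higher and 16.8% lower. The groups did not overlap in 5 of the 6, 1 higher and 4 lower, beside 53.6% of all genes, 30.9% higher and 22.7% lower. The median log2 fold change of the 6 was -0.13, and that of all genes was 0.03. All fold changes in log2 units are differences of log2(FPKM + 1), mimics minus control, which understate the change of low genes.

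**Figure D2:**
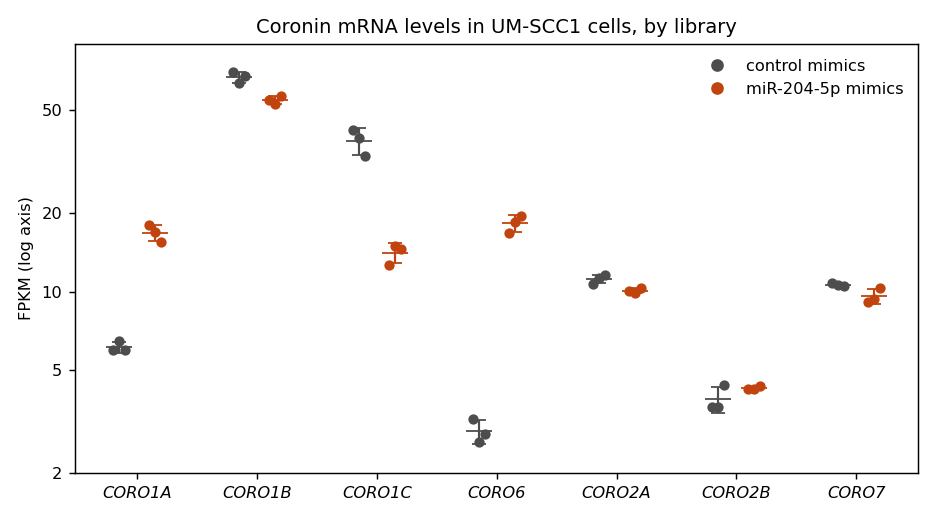
FPKM of each coronin gene in the 6 UM-SCC1 libraries, on a log axis. Points are single libraries, and horizontal marks and bars give the mean and SD of 3 libraries per group; CORO6 and CORO1A lie higher and CORO1C lower with miR-204-5p mimics, while the groups overlap for CORO2B.

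CORO6 (ENSG00000167549) lies on the minus strand at chr17:29614756-29621423, and its listed transcript has 10 exons and 2397 bases. Its level was 16.8, 18.5 and 19.6 FPKM with miR-204-5p mimics. With control mimics it was 3.22, 2.63 and 2.83 FPKM. Every miR-204-5p library stood above every control library, which is the pattern the gene was picked for. The means were 18.3 ± 1.41 and 2.89 ± 0.302 FPKM (SD, n = 3 each), a ratio of 6.34 and a log2 fold change of 2.31 (SE 0.0823). This was rank 2 among the 11504 genes whose mean FPKM was 1 or more. At the inferred depth the control values rested on roughly 87.8 to 111 fragments and those with miR-204-5p mimics on roughly 527 to 737.

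CORO1A (ENSG00000102879, plus strand, chr16:30182827-30187494) encodes the coronin typical of white blood cells. Its level was 18.1, 16.99 and 15.5 FPKM with miR-204-5p mimics and 5.93, 6.47 and 5.93 FPKM with control mimics. The groups lay far apart compared with the spread inside either. CORO1A rose 2.76-fold in mean FPKM, by 1.33 on the log2 scale (SE 0.0676, limma adjusted p-value 6.74e-05). Its listed transcript has 937 bases, while the longest annotated transcript of the gene has 2891, so its level per length depends on which length was used.

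Because CORO1A and CORO6 are known from other tissues, markers of those tissues were read in the same libraries. All 11 leukocyte markers were listed, none at 0 in all libraries, and 9 of them had a mean under 1 FPKM. Their summed level was 16.7 to 20.5 FPKM with miR-204-5p mimics and 20.002 to 21.5 FPKM with control mimics, and CD14, a receptor for bacterial lipopolysaccharide, made up most of it (12.4 and 16.3 FPKM). PTPRC (CD45), which defines leukocytes, was at 0.293 ± 0.220 and 0.138 ± 0.0161 FPKM (SD, n = 3 each). Without CD14, which fell, the other 10 summed to 4.58, 8.58 and 4.95 FPKM in the miR-204-5p libraries and 4.95, 4.86 and 3.67 FPKM in the control libraries, a sum chosen after the values had been seen. Replicate 2 of the miR-204-5p mimics stood highest in that sum, while its CORO1A level lay between those of the other libraries of its group. The part of these markers in the rise of CORO1A was not tested.

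Of 11 skeletal and cardiac muscle markers only CKM, TNNT2, TTN and RYR1 were listed, and MYOD1, MYOG, DES, ACTA1, ACTC1, MYH7 and MYH2 were not in the table used here. The summed level of the 4 was 0.990 to 1.43 FPKM with miR-204-5p mimics and 1.84 to 2.89 FPKM with control mimics. TNNT2 made up most of it (0.891 and 1.84 FPKM), and the other 3 had a mean under 1 FPKM. CKM was lower as well, while TTN and RYR1 did not pass the test. The sum stood lower where CORO6 stood higher, and its part in the result was not tested. Of 6 neuronal markers 3 were listed, with sums of 8.49 to 10.9 and 6.44 to 7.07 FPKM, of which TUBB3, a tubulin that tumour cells also use, gave 8.30 and 5.36 FPKM. SNAP25, STMN2 and GAP43 were not in the table, and RBFOX3, which marks mature neurons, was at 0.0947 and 0.108 FPKM. The neuronal sum moved in the direction of CORO6, and its part in the result was not tested. Fibroblast markers summed to 9.81 to 11.6 and 8.58 to 9.41 FPKM (4 of 6 listed), and endothelial markers to 0.590 to 0.767 and 0.443 to 0.502 FPKM (3 of 4 listed). All 8 squamous epithelial markers, the label's own cell type, were listed, with sums of 896 to 983 and 1024 to 1044 FPKM. These sums hide members that moved both ways. TP63 (27.4 and 55.9 FPKM), KRT5, KRT14 and DSP fell, CDH1, SFN and KRT6A rose, and KRT17 did not pass the test.

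CORO1C (ENSG00000110880, minus strand, chr12:108645109-108731596) encodes a coronin used in most cell types. Its level was 12.7, 14.97 and 14.6 FPKM with miR-204-5p mimics. With control mimics it was 41.9, 39.2 and 33.2 FPKM. The highest miR-204-5p library did not reach the lowest control library. The means were 14.1 ± 1.23 and 38.1 ± 4.44 FPKM (SD, n = 3 each), or 0.370 of the control level, and CORO1C fell by 1.37 on the log2 scale (SE 0.0989, limma adjusted p-value 0.000180). CORO1C is the gene whose 4 seed matches are printed above.

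Across the genes tested, the median log2 fold change at a mean FPKM of 1 or more was -0.14 for 961 genes with the 8-letter match AAAGGGAA, -0.06 for 1133 with AAAGGGA, -0.02 for 992 with AAGGGAA, 0.02 for 1442 with AAGGGA alone and 0.09 for 6880 with none. These classes place each gene by its longest match only. They are a description, and a match is not shown to be a bound site.

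CORO1B (ENSG00000172725, minus strand, chr11:67435510-67443484) encodes the coronin that brings the cofilin phosphatase slingshot to the leading edge. It was the most abundant coronin per length in both groups, at 55.0, 52.9 and 56.9 FPKM with miR-204-5p mimics and 69.9, 63.7 and 67.8 FPKM with control mimics. The groups did not overlap. CORO1B fell by 0.28 on the log2 scale (SE 0.0481, limma adjusted p-value 0.00442), to 0.819 of the control mean.

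CORO1B is listed with a transcript of 4464 bases that GENCODE 29 classes as a target of nonsense-mediated decay. It takes in all 1292 bases of PTPRCAP, the next gene on the same strand, which is 28.9% of its length, so reads of PTPRCAP cannot be told from reads of this transcript there, if the value rests on that transcript. PTPRCAP, a partner of CD45 in lymphocytes, was listed at 0.891, 3.47 and 1.60 FPKM with miR-204-5p mimics and at 0.619, 0.993 and 0.543 FPKM with control mimics, far below CORO1B per length, and it did not pass the test (limma adjusted p-value 0.104).

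CORO2A (ENSG00000106789, minus strand, chr9:98120975-98172884) was at 10.03, 9.91 and 10.3 FPKM with miR-204-5p mimics and 10.7, 11.3 and 11.6 FPKM with control mimics. The groups did not overlap, yet the log2 fold change of -0.14 (95% interval -0.25 to -0.02, limma) had an adjusted p-value of 0.0632. It passed under each of 3 rescalings, at adjusted p-values of 0.0318 (equal sums), 0.02496 (equal medians) and 0.0432 (quantile normalization).

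CORO7 (ENSG00000262246, minus strand, chr16:4354542-4416664) was at 9.12, 9.39 and 10.4 FPKM with miR-204-5p mimics and 10.8, 10.6 and 10.5 FPKM with control mimics. The gap between the groups was narrow. The log2 fold change was -0.13 (95% interval -0.27 to 0.00495, limma adjusted p-value 0.112), and without miR-204-5p mimics replicate 3 it was -0.18 with an adjusted p-value of 0.0378.

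Of the exonic bases of its listed transcript, 82.4% are also exonic in CORO7-PAM16, a readthrough gene on the same strand, so reads could be split between them. CORO7-PAM16 was listed at 0 to 0.616 FPKM, and it did not pass the test (limma adjusted p-value 0.384). VASN lies within CORO7 on the other strand and shares no exonic base with it. VASN, which encodes a membrane protein that binds TGF-beta, fell from 2.12 ± 0.342 to 0.914 ± 0.0728 FPKM (SD, n = 3 each, limma adjusted p-value 0.00155).

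CORO2B (ENSG00000103647, plus strand, chr15:68578969-68727803) was at 4.22, 4.20 and 4.31 FPKM with miR-204-5p mimics and 3.60, 3.58 and 4.35 FPKM with control mimics. One control library lay above all libraries of the other group. The log2 fold change was 0.12 (95% interval -0.07 to 0.30, limma adjusted p-value 0.274).

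These changes reordered the family. With control mimics the order of mean FPKM was CORO1B, CORO1C, CORO2A, CORO7, CORO1A, CORO2B and CORO6, and the libraries overlapped between neighbours for CORO2A and CORO7 alone. With miR-204-5p mimics the order was CORO1B, CORO6, CORO1A, CORO1C, CORO2A, CORO7 and CORO2B, with overlap between CORO6 and CORO1A and between CORO2A and CORO7. CORO6, which was picked for its rise, thus went from the lowest place to the second, level with CORO1A within the spread of the libraries. The places depend on the transcript lengths used, and CORO1A is listed with 937 bases where its longest transcript has 2891.

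The summed FPKM of the 7 genes was 128 ± 3.10 in the miR-204-5p group and 140 ± 5.41 in the control group (SD, n = 3 each). This total includes CORO6, which was picked for its rise. Without it the other 6 summed to 110 ± 1.97 and 137 ± 5.14 FPKM, lower in every miR-204-5p library. The shares that follow are a description for the same reason. Of the sum of all 7, CORO1C made up 11.0% ± 0.862 in the miR-204-5p group and 27.2% ± 2.43 in the control group. The share of CORO6 was 14.3% ± 0.812 and 2.07% ± 0.147, and that of CORO1A 13.2% ± 1.28 and 4.37% ± 0.323. CORO1B stayed the largest, at 42.9% ± 1.03 and 48.0% ± 1.71. The ratio of CORO6 to CORO1C was 1.33, 1.24 and 1.34 in the miR-204-5p libraries and 0.0769, 0.0671 and 0.0852 in the control libraries. FPKM is per transcript length, so these shares compare message numbers only as far as the listed lengths hold, and in bulk RNA a change in every cell cannot be told apart from a change in some of them.

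**Figure D3:**
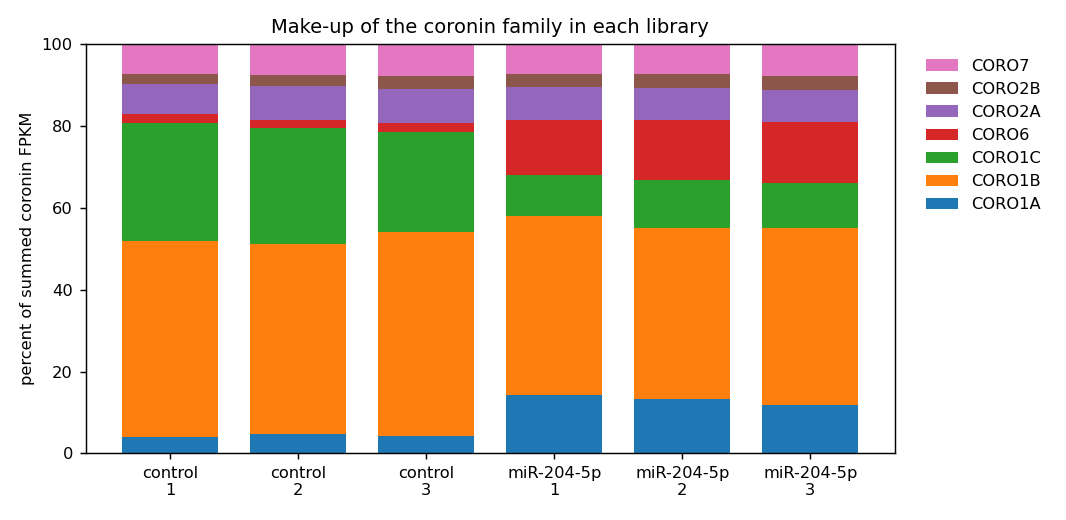
Share of each coronin gene in the summed coronin FPKM, in percent, for each of the 6 libraries. Each stacked bar is 1 library; in the miR-204-5p libraries the CORO1C band is narrower (11.0% against 27.2% on average) and the CORO6 band wider (14.3% against 2.07%).

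Next to CORO6 on chromosome 17, ANKRD13B lies on the plus strand and SSH2 on the minus strand. ANKRD13B, which encodes an ankyrin-repeat protein that binds ubiquitin, was at 12.2, 12.1 and 13.0 FPKM with miR-204-5p mimics. With control mimics it was at 2.66, 2.72 and 2.77 FPKM. Like CORO6, it stood higher in every miR-204-5p library. Its log2 fold change was 1.85 (SE 0.0532, limma adjusted p-value 1.53e-05).

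The listed ANKRD13B transcript, of 582 bases, ends 5634 bases from the end of CORO6, but longer annotated transcripts run to base 29614761, so that both genes meet tail to tail and share 6 exonic bases. Whether the libraries kept the strand is not given in the sources used here, and without strand, reads in those bases cannot be assigned to either gene. The antisense gene ABHD15-AS1 spans CORO6 and shares no exonic base with its listed transcript. Among 851 pairs of genes that face each other tail to tail within 10 kb, both with a mean FPKM of 1 or more, ANKRD13B and CORO6 were the 1 pair in which both log2 fold changes exceeded 1, and 25 pairs had at least 1 such gene. That count was chosen after the values had been seen, and CORO6 had been picked for its rise.

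SSH2, a slingshot phosphatase that activates cofilin, lies 4515 bases from the other end of CORO6. It was at 3.59, 4.19 and 3.24 FPKM with miR-204-5p mimics and 4.23, 4.48 and 4.29 FPKM with control mimics, so the groups did not overlap. It did not pass the test (log2 fold change -0.19, limma adjusted p-value 0.117), and passed in 2 of 13 alternatives. SSH2 held an 8-letter seed match in its longest 3′UTR. SSH1, of the same phosphatase family, is the next listed gene on the higher-coordinate side of CORO1C, 46596 bases away on chromosome 12. SSH1 rose from 5.99 ± 0.162 to 10.8 ± 0.545 FPKM (SD, n = 3 each; log2 fold change 0.75, limma adjusted p-value 0.000194), while CORO1C fell.

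**Figure D4:**
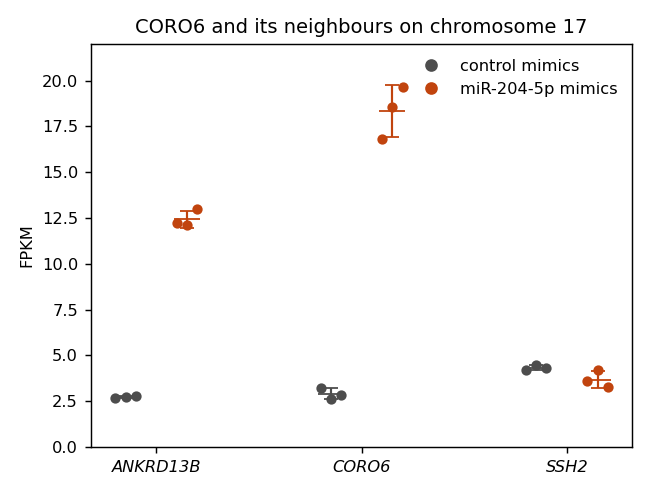
FPKM of CORO6 and of the nearest listed gene on either side of it, by library. Points are single libraries with the mean and SD of 3; ANKRD13B and CORO6 sit between 2.63 and 3.22 with control mimics and between 12.1 and 19.6 with miR-204-5p mimics, while SSH2 lies between 3.24 and 4.19 with miR-204-5p mimics and between 4.23 and 4.48 with control mimics.

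The genes with the profile most like that of CORO6 over the 6 libraries were TMEM120B, TNFSF18, SLC7A11, ANKRD13B and KIAA0040. Likeness was the Euclidean distance between centred log2(FPKM + 1) values, over the 11503 other genes whose mean FPKM was 1 or more, and the distances were 0.417, 0.550, 0.568, 0.601 and 0.640. TMEM120B, which encodes a membrane protein of the nuclear envelope, was at 12.6 ± 0.454 and 2.38 ± 0.0333 FPKM (SD, n = 3 each). SLC7A11, the cystine importer, was at 12.6 ± 1.01 and 2.62 ± 0.104 FPKM. TNFSF18, the ligand GITRL, was at 9.76 ± 1.75 and 1.42 ± 0.162 FPKM. ANKRD13B is also the neighbour of CORO6 described above. Likeness was measured to the values CORO6 was picked for, so it mainly brings out genes with a rise of like size. It is a description and adds nothing to the rise of ANKRD13B already given. SLC7A11 held a 7-letter seed match, TMEM120B and ANKRD13B one of 6 letters, and TNFSF18 and KIAA0040 none.

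The profiles most like that of CORO1C were those of MYO10, ATP2B4, ANKRD13C, AK4 and NCOA3, at distances of 0.227 to 0.273. MYO10, the myosin that carries cargo to the tips of filopodia, was at 7.06 ± 0.320 with miR-204-5p mimics and 18.6 ± 0.642 FPKM with control mimics (SD, n = 3 each). ATP2B4, a calcium pump of the plasma membrane, was at 11.4 ± 0.283 and 29.5 ± 1.16 FPKM. NCOA3, a coactivator of nuclear receptors, was at 14.4 ± 0.894 and 37.0 ± 2.74 FPKM, close to CORO1C in level as well. All 5 held a seed match of at least 7 letters, as did CORO1C, and as did 27.09% of all genes. Their 3′UTRs were 2129 to 5968 bases long, and long 3′UTRs hold such matches more often (38.1% at the length of that of CORO1C, 49.8% at that of CORO2A). Of the genes described here that rose, NCKAP1 (8 letters), SSH1 and SLC7A11 (7 letters each) held such matches too, in longer 3′UTRs of 16587, 9796 and 7859 bases. Among other genes described here that fell, ABI2 held an 8-letter match, and ARPC5L and TBL1XR1 held matches of 6 letters only. CORO1B, CTTN, TESK2, TWF1 and NCOR1 fell as well and held none in their longest 3′UTR. The part of the matches in these changes was not tested. With 6 libraries in 2 groups the size of the group difference weighs heavily in these distances.

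Genes of 4 lists that work with the coronins were read against the 40.8% of all genes that passed (23.9% higher, 16.8% lower). Of the 10 Arp2/3 genes, 2 rose, 1 fell and 7 did not pass, with a median log2 fold change of 0.06. Over the alternatives 2 to 4 of them passed, so the share is not set apart from that of all genes. ACTR3B, the less common form of the ACTR3 subunit, rose from 3.51 ± 0.122 to 6.09 ± 0.0772 FPKM (SD, n = 3 each; limma adjusted p-value 0.000282). ARPC5L, an alternative form of the ARPC5 subunit, fell from 33.8 ± 1.87 to 24.7 ± 1.138 FPKM (limma adjusted p-value 0.00132). ACTR2, a core subunit, rose by 0.17 on the log2 scale, and its call was lost in 4 of 13 alternatives. Both larger changes were those of alternative subunits.

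Of 21 WASP and WAVE genes, which switch the Arp2/3 complex on, 20 were listed (ABI3 was not), and 5 rose, 4 fell and 11 did not pass, with a median of 0.02, a share near the 40.8% of all genes. NCKAP1, the large scaffold of the WAVE complex, rose from 6.15 ± 0.799 to 11.2 ± 0.576 FPKM, and WASF1 (WAVE1) from 7.44 ± 0.216 to 9.70 ± 0.351 FPKM (SD, n = 3 each). CTTN (cortactin), which competes with coronins at branch points, fell from 118 ± 0.0269 to 91.0 ± 1.82 FPKM, and ABI2, another WAVE subunit, from 2.89 ± 0.310 to 2.08 ± 0.0994 FPKM. These 4 passed the limma test at adjusted p-values of 0.000904, 0.00251, 0.000314 and 0.0141.

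Of 20 genes of cofilin and filament turnover, 4 rose, 3 fell and 13 did not pass, with a median of 0.08, beside 40.8% of all genes that passed. Over the alternatives 5 to 10 of them passed, so this share too is not set apart. GMFB, a glia maturation factor that takes Arp2/3 branches apart, rose from 2.75 ± 0.249 to 8.54 ± 0.618 FPKM (SD, n = 3 each; log2 fold change 1.35, limma adjusted p-value 9.69e-05). SSH1 rose as given above. TESK2, a kinase that switches cofilin off, fell by 0.44 on the log2 scale (limma adjusted p-value 0.000930), from 10.6 ± 0.217 to 7.54 ± 0.323 FPKM. TWF1 (twinfilin) fell by 0.20, and its call was lost in 3 of 13 alternatives.

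Of the 6 genes of the NCoR corepressor, with which CORO2A is found, 1 rose, 2 fell and 3 did not pass, with a median of -0.04, beside 40.8% of all genes that passed. TBL1XR1, an exchange factor of the complex, fell from 14.3 ± 0.243 to 8.50 ± 1.07 FPKM (SD, n = 3 each; log2 fold change -0.69, limma adjusted p-value 0.00108). NCOR1, its scaffold, fell by 0.28 (limma adjusted p-value 0.00883), and GPS2 rose by 0.31 (limma adjusted p-value 0.00314).

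**Figure D5:**
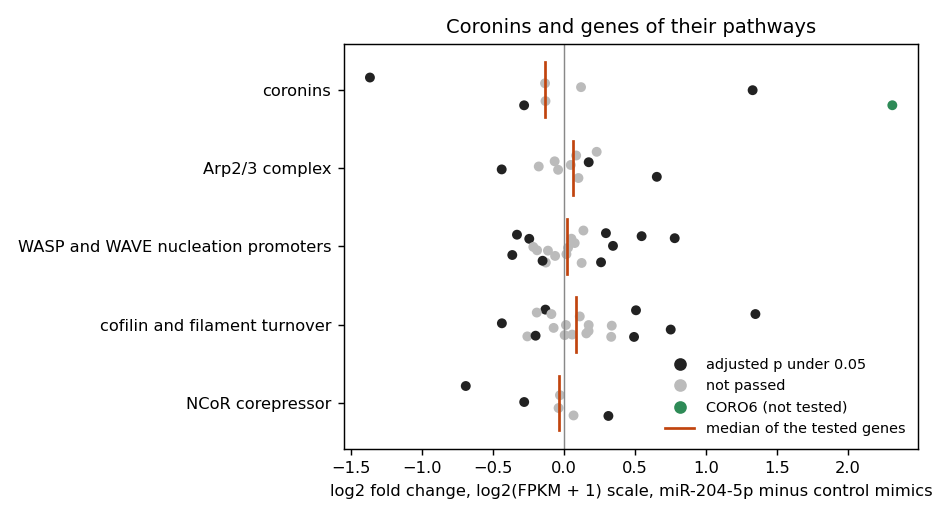
Log2 fold changes (log2(FPKM + 1), miR-204-5p minus control mimics) of the coronins and of 4 lists of genes that work with them. Each point is 1 gene, dark where the limma adjusted p-value was under 0.05, vertical spread has no meaning and the line marks the median of the tested genes; list medians lie between -0.04 and 0.08, and CORO6 at 2.31 (green, not tested) lies furthest to the right.

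Over all genes, the 6 libraries were alike in depth, at an inferred 13.1 to 16.0 M fragments in the miR-204-5p group and 13.9 to 16.4 M in the control group. Spearman correlations across genes were 0.990 to 0.991 within a group and 0.973 to 0.976 between groups, so by rank over all genes no library stood apart. Replicate 2 of the miR-204-5p mimics had the fewest genes at 0 FPKM, 161 beside 187 to 270 in the other libraries. It also stood highest in the leukocyte sum without CD14 given above. In transcripts of GENCODE 29, near copies of at least 90% identity over 100 bases were found for CORO1B (PTPRCAP), CORO7 (CORO7-PAM16) and a stretch of CORO2A shared with 3 other genes, and not between coronins.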

How the data were processed

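Illumina TruSeq libraries of UM-SCC1 RNA were sequenced on HiSeq X machines, 3 for miR-204-5p mimics and 3 for control mimics. The authors deposited FPKM per gene, each gene with 1 listed transcript. The submitters' processing notes name HISAT2, StringTie and hg38, with no versions. The authors' own comparison columns (log ratio, p-value and FDR from edgeR) were not used. For want of counts, the groups were compared on log2(FPKM + 1) by limma 3.58.1 (R 4.3.3; lmFit, then eBayes with a trend), two-sided, without filter or block, with Benjamini-Hochberg adjustment over 14959 genes at 0.05. On simulated data of that size, 79 of 100 genes changed by 0.5 and 95 of 100 changed by 1 (log2) were called, with 6 of 14759 unchanged genes. Only those few genes were changed there, with independent normal noise, whereas 40.8% of genes passed in the real data. The changed genes were drawn only from those with a mean control log2(FPKM + 1) above 1, so lower genes were not covered. The simulated rates therefore show that the steps ran as meant and do not carry over to the real calls.

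Depth was inferred in Python 3.11.15 from low values of 383 to 401 genes with 1 annotated transcript. A step worth 1 read of a pair made 16.4% to 30.7% of them whole multiples within 0.02 of a step, mostly even ones, against 3.36% to 5.49% at a wrong step, so counts could not be recovered and depth is approximate. A search for whole fragments, tried as well, made 3.01% to 25.9% whole and gave 13.2 to 16.6 M fragments, and the step per read was preferred after both had been seen.

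Of the listed transcripts, 14946 were found in GENCODE 29 (14844 with the same span), from which 3′UTRs were taken. The coronins, gene lists and tests were chosen with earlier results of these data known. Named genes were all coronins, genes overlapping them, the neighbours of CORO6, the 5 nearest profiles of CORO6 and of CORO1C, markers, and per list up to 2 largest called changes each way at a mean FPKM of at least 1. One further gene list is not reported here. Alternatives were a pseudocount of 0.1, a mean FPKM of at least 1, no variance trend, rescalings, the replicate block, each library left out, and joined 3′UTRs.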

Additional observations from a re-analysis of the deposited data

How the results depend on the processing

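Every tested coronin kept its direction in 13 of 13 alternatives, and CORO1A, CORO1B and CORO1C passed in all 13. Under scaling to equal medians 5 coronins passed, where 3 had passed; this setting made the log2 fold change -0.18 for CORO2A (adjusted p-value 0.02496) and -0.17 for CORO7 (0.0496). CORO2A also passed under equal sums (-0.18, adjusted p-value 0.0318) and quantile normalization (-0.15, 0.0432), p-values being limma's with Benjamini-Hochberg adjustment. These scalings moved the median log2 fold change of genes with a mean FPKM of 1 or more by -0.0377 to -0.0407, which goes the same way as the added calls. With a pseudocount of 0.1 the log2 fold change of CORO6 was 2.62. With each library left out, CORO7 ranged from -0.18 to -0.10 and passed only without miR-204-5p mimics replicate 3; the cause was not tested. Same-numbered libraries did not deviate together (r = -0.04, -0.021 and -0.108 across 11504 genes), so the numbers were not taken as pairs; with a replicate block, 5096 genes passed instead of 6098, and 3 coronins as before. FPKM hides the number of reads, and changes near 0.1 in log2, as for CORO2A, CORO2B and CORO7, were at the limit of 3 libraries a group.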
